A study of Mus musculus with 24 samples.

Results

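Krüppel-like factors (KLFs) and the receptors that guide T cells into and out of lymphoid tissue were followed across bulk RNA-seq libraries of T cells sorted from mouse tumours. The 7 genes were Klf2, Klf3, Klf6, Klf13, S1pr1, S1pr4 and Ccr7. They were taken by symbol from the deposited count table, which holds 54957 gene rows. All 7 were found, each in 1 row, and all 7 passed the filter on low counts in every comparison; the lowest count of any of them in a library was 72 reads, for Klf3. The mice carried B16F10-OVA tumours, a melanoma line that expresses ovalbumin as a model antigen, and were given 200 μg of an isotype control antibody, of anti-PD-1 or of anti-JAML (named antiAMICA1 in the sample titles, after an older name of the gene). Tumours were taken 1 day later, so every group shares the tumour, the dose and the single time point. CD8+ T cells and CD4+FOXP3+ regulatory T (Treg) cells were sorted, which gave 6 groups of 4 libraries. PD-1 restrains T cells after activation, and JAML is a junctional adhesion molecule-like protein that helps leukocytes bind epithelium. The strain, sex and age of the mice are not stated in the labels, nor is how FOXP3 was made visible for the sort. Each library came from fewer than 400 cells by Smart-seq2, which amplifies whole polyadenylated transcripts, and nothing in the labels ties the 4 libraries of a group to different mice. The p-values therefore cover the spread from library to library alone, and that spread may be technical.

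Sphingosine-1-phosphate (S1P) is abundant in blood and lymph and scarce inside tissues, and T cells that carry the S1P receptor encoded by S1pr1 follow this gradient out of the tissue. KLF2 is a zinc-finger activator that keeps S1pr1 transcribed in naive and recirculating T cells, and it is lost when T cells are activated or settle in tissue, where CD69 also pulls the receptor off the cell surface. CCR7 recognises the chemokines CCL19 and CCL21, which draw T cells into lymph nodes and into the lymphatic vessels that leave tissues. KLF3 is a repressor that recruits CtBP to the same CACCC sequences that KLF2 binds. KLF6 is a broadly expressed, rapidly induced factor, and KLF13 is a factor of T cells known for activating the chemokine gene Ccl5. S1PR4 is an S1P receptor found mostly on blood cells.

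In the mouse genome build GRCm38 (mm10), GENCODE release 21 for mouse places Klf2 (ENSMUSG00000055148.7) on chromosome 8 at 72319033 to 72321656 and Klf3 (ENSMUSG00000029178.14) on chromosome 5 at 64803388 to 64832901, both on the plus strand. Klf6 (ENSMUSG00000000078.7) lies on chromosome 13 at 5861482 to 5870394 on the plus strand, and Klf13 (ENSMUSG00000052040.10) on chromosome 7 at 63886351 to 63938915 on the minus strand. S1pr1 (ENSMUSG00000045092.8) lies on chromosome 3 at 115710433 to 115715072, S1pr4 (ENSMUSG00000044199.6) on chromosome 10 at 81497747 to 81500132 and Ccr7 (ENSMUSG00000037944.8) on chromosome 11 at 99144196 to 99155077, all on the minus strand. All 7 are protein-coding genes and the values are reads over whole genes. Klf3 overlaps C230096K16Rik on the same strand, whose own reads came to 4.04% of those of Klf3, and Klf13 overlaps genes with at most 0.0983% of its reads. Strand cannot separate C230096K16Rik from Klf3, so Klf3 carries a small uncertainty from that neighbour. The labels do not state whether counting used strand. That bears on the neighbours on the opposite strand, which are those of Klf13 and, for Klf3, Gm20033 with 0.241% of its reads.

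The promoter stretches of Klf2 and Klf3, which with S1pr1 did not overlap between the anti-JAML and the other CD8 libraries, and of Klf13, which showed the clearest difference between Treg groups, are given 5′ to 3′ on the strand of each gene, from RefSeq on GRCm38.p6. Each ends before the earliest start of the gene in GENCODE. Capitals mark matches to the CACCC box, the sequence that KLF proteins bind (searched as CCNCNCCC on both strands), and to the GC box (GGGCGG, both strands); matches of the 2 motifs overlap and run together. In Klf2 the capitals also mark a MEF2-type match, CTA and TAG around 4 bases.
Klf2 promoter, chr8:72318812-72319032, plus strand: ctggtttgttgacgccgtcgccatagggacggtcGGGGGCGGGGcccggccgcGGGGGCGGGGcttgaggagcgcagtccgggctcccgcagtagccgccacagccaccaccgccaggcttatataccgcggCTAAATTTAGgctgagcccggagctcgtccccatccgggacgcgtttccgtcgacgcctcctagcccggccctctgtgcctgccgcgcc
Klf3 promoter, chr5:64803271-64803387, plus strand: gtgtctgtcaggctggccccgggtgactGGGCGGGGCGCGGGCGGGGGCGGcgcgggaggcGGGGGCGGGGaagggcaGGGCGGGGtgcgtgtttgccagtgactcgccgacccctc
Klf13 promoter, chr7:63938916-63939165, minus strand: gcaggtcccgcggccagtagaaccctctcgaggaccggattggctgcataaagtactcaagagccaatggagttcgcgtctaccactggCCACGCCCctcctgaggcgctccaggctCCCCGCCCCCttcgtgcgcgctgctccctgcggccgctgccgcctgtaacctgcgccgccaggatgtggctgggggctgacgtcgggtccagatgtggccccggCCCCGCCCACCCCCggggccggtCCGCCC
In the 250 bases before the RefSeq start, Klf3 held 10 CACCC box and 6 GC box matches, Klf13 5 and 3, Klf2 4 and 2, Klf6 2 and 1, and S1pr4 none of either. The promoter table had 5 of the 7 genes. Over 32851 mouse promoters of the same length, 45.9% held a CACCC box match, 32.7% a GC box match, 3.17% a match to the FOXO-type motif GTAAACA and 3.20% the MEF2-type match; none of the 5 promoters held the FOXO-type motif. MEF2 factors are known activators of Klf2 in endothelium, and FOXO1 is a known activator of Klf2 and S1pr1 in T cells. These matches describe letters and not binding.

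The libraries held 11170918 to 22556460 counted reads, and mitochondrial transcripts took 1.20% to 6.89% of them. Foxp3 had 0 reads in all CD8 libraries, and Cd8a was at or below 0.1 CPM (reads relative to library size, with TMM scaling over the 24 libraries) in all Treg libraries, while Cd8a stood at 1107 to 1783 CPM in CD8 libraries. The separation was not complete for every marker: Cd8b1 was read in all 12 Treg libraries, at 12.7 to 49.0 CPM against 685 to 1209 CPM in CD8 libraries. The 4 Treg markers summed to 63.6 to 371 CPM in CD8 and 1384 to 2307 CPM in Treg libraries. In CD8 libraries Foxp3 was at 0 and Cd4 at most at 0.113 CPM, so those sums came from Il2ra and Ikzf2. CD8 anti-JAML libraries 2 and 4 and Treg anti-PD-1 libraries 1 and 4 stood apart: Lyz2, a macrophage gene, was at 416 CPM in CD8 anti-JAML library 2 and at 647 and 889 CPM in Treg anti-PD-1 libraries 1 and 4, and CD8 anti-JAML library 4 had the highest mitochondrial share, 6.89%. In CD8 anti-JAML libraries 2 and 4 the 4 NK-cell markers summed to 100.5 and 122 CPM, against 34.7 to 41.4 CPM under isotype, with Ncr1 at 0 in both groups. Klrb1c gave 4.93 and 12.5 CPM of the sums in libraries 2 and 4, and Eomes and Klra8 gave the rest. The 4 erythroid genes summed to 495 and 397 CPM in these libraries, 259 CPM in CD8 isotype library 3, 669 CPM in Treg anti-PD-1 library 1 and 1439 CPM in Treg anti-JAML library 4, and to at most 8.31 CPM in the other 19. These libraries stayed in, and results are given without them where they matter. In bulk samples, fewer cells that express a gene and less RNA per cell cannot be told apart.

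On the TPM scale (transcript abundance corrected for gene length, deposited by the authors), Ccr7 led in all 3 CD8 groups and Klf3 was lowest in all 6 groups; S1pr1 led in Treg cells under isotype and after anti-JAML, and Klf6 led after anti-PD-1 at 175 ± 57.9 TPM. In isotype CD8 cells the mean level was 88.4 ± 44.0 TPM for Ccr7, 60.6 ± 4.49 for Klf6, 41.6 ± 6.199 for Klf13, 40.0 ± 26.6 for S1pr1, 27.3 ± 15.2 for Klf2, 24.5 ± 8.72 for S1pr4 and 2.45 ± 0.903 for Klf3 (SD, n = 4 for every group mean here and below). In isotype Treg cells S1pr1 led at 139 ± 38.7 TPM, followed by Klf6 at 108 ± 35.7 and Klf13 at 91.1 ± 14.6, and Klf3 was again lowest at 5.27 ± 3.69. Among the S1P receptors, S1pr2 stood at 1.95 to 9.27 TPM as a group mean, S1pr5 at 0 to 2.22, and S1pr3 was 0 in all groups, far below S1pr1 and S1pr4 in both populations. Among the other factors, Klf10 reached 14.8 to 35.5 TPM as a group mean and Klf7 0.855 to 6.04.

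**Figure D1:**
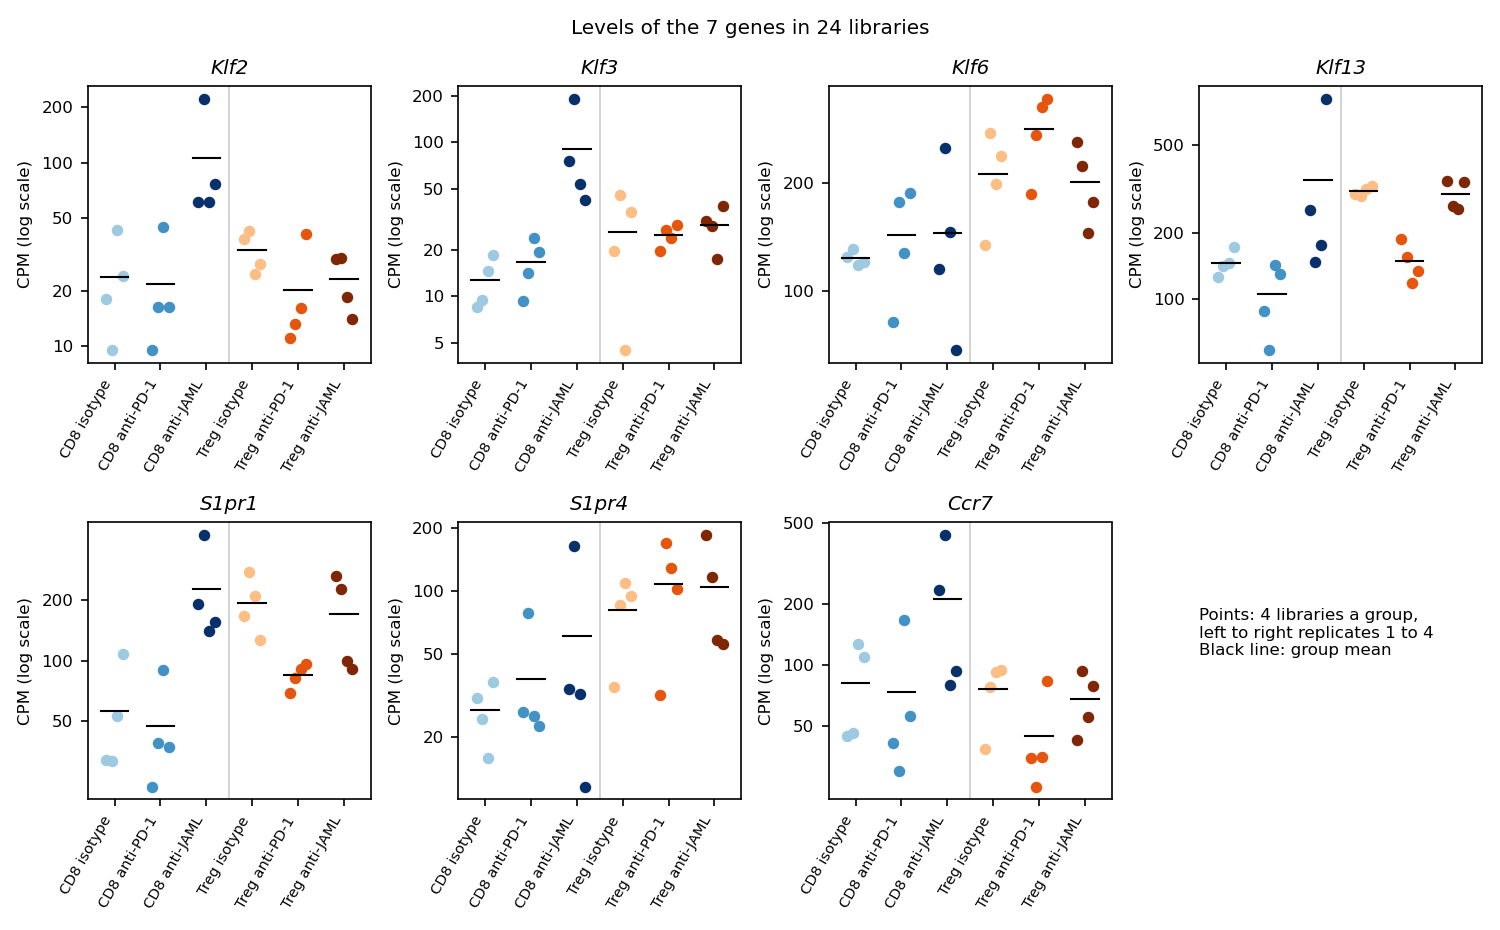
CPM of each gene (log axis) in the 24 libraries, 1 panel a gene. Points are libraries ordered by replicate number within a group and the black line is the group mean of 4. For Klf2, Klf3 and S1pr1 the 4 CD8 anti-JAML points lie above the other 8 CD8 points, and for Klf13 the 4 Treg anti-PD-1 points lie below the other 8 Treg points.

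The first comparison asked what anti-JAML did to these genes in tumour CD8 cells. Klf2, Klf3 and S1pr1 had higher values in all 4 anti-JAML libraries than in any isotype library, with fitted folds of 3.99 to 6.97, but none of the 7 genes passed the threshold of 0.05 after adjustment for 12648 genes. Klf2, the activator of S1pr1, stood at 18.2, 9.54, 43.1 and 24.3 CPM in isotype libraries 1 to 4 and at 60.9, 223, 61.1 and 76.2 CPM in the anti-JAML libraries. Library 2 was far above the other 3, and the lowest anti-JAML value was above the highest isotype value. The log2 fold change was 2.12 ± 0.58 (SE; edgeR quasi-likelihood test, adjusted p = 0.295).

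Klf3, the repressor, showed the smallest p of the 7, rank 2 of the 12648 genes tested. It stood at 8.56, 9.54, 14.6 and 18.5 CPM under isotype and at 75.9, 192, 53.5 and 41.9 CPM after anti-JAML. The groups did not overlap, and the mean went from 12.8 ± 4.62 to 90.8 ± 68.8 CPM, a log2 fold change of 2.80 ± 0.49 (edgeR, adjusted p = 0.134). S1pr1, the exit receptor, stood at 31.9, 31.7, 53.4 and 108 CPM under isotype and at 191, 424, 141 and 156 CPM after anti-JAML. Here too the groups did not overlap, although isotype library 4 came close, and the log2 fold change was 1.998 ± 0.50 (edgeR, adjusted p = 0.290).

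The remaining genes were less even. Ccr7, the receptor for entry into lymph nodes and lymphatics, stood at 45.01, 46.5, 127 and 109 CPM under isotype and at 234, 437, 79.9 and 93.5 CPM after anti-JAML, so that libraries 3 and 4 lay inside the isotype range; the log2 fold change was 1.35 ± 0.62 (edgeR, adjusted p = 0.423). Klf13 stood at 125 to 171 CPM under isotype and at 252, 148, 175 and 812 CPM after anti-JAML, with the mean carried by library 4; the log2 fold change of 1.25 ± 0.47 (edgeR, adjusted p = 0.363) became 0.39 ± 0.28 without that library. S1pr4 stood at 15.9 to 36.7 CPM under isotype and at 33.9, 164, 32.2 and 11.5 CPM after anti-JAML; its log2 fold change of 1.13 ± 0.67 (edgeR, adjusted p = 0.534) was -0.05 ± 0.51 without library 2. Klf6 stood at 118 to 131 CPM under isotype, the tightest of the 7, and at 116, 251, 147 and 68.5 CPM after anti-JAML, a log2 fold change of 0.22 ± 0.33 (edgeR, adjusted p = 0.839).

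Of all genes, 0% passed the adjusted threshold in this comparison with edgeR, and 0 of the 7 did. At an unadjusted p under 0.05, 5 of the 7 were reached (Klf2, Klf3, Klf13, S1pr1 and Ccr7, all higher after anti-JAML) against 11.7% of all genes. The anti-JAML libraries lay wholly above the isotype libraries for 3 of the 7 against 3.23% of all genes, and wholly above the other 8 CD8 libraries for the same 3 against 1.16%. The median log2 fold change was 1.35 over the 7 genes and 0.09 over all genes. DESeq2 called 3 of the 7, Klf2 (adjusted p = 0.0157), Klf3 (3.96e-06) and S1pr1 (0.0054), and limma-voom called 0.

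Library 2 had the highest level of Klf2, Klf3, Klf6, S1pr1, S1pr4 and Ccr7 among the anti-JAML CD8 libraries. It also had a summed level of 10 macrophage and monocyte genes of 449 CPM, against 20.6 to 59.6 CPM in the other 3 and 14.8 to 55.4 CPM under isotype, and 9 of those 10 genes had reads in the group, with Fcgr1 at 0. Its summed T-cell receptor complex genes were lower, at 2493 CPM against 4172 to 4880 CPM in the other 3 and 4463 to 5287 CPM under isotype. Endothelial cells and B cells also express some of these genes: 5 of 9 endothelial markers (Cdh5, Tek, Tie1, Emcn and Cldn5) and the B-cell markers Ms4a1 and Pax5 were at 0 in all 4 anti-JAML libraries, and the summed levels were 18.4 to 94.0 CPM and 2.88 to 16.2 CPM, against 17.95 to 34.6 and 2.58 to 9.32 CPM under isotype. The highest endothelial sum was that of library 2, where Pecam1 stood at 91.9 CPM against 12.9 to 17.7 CPM in the other 3. Without library 2 the log2 fold changes were 1.48 ± 0.53 for Klf2, 2.16 ± 0.39 for Klf3, 1.54 ± 0.47 for S1pr1 and 0.74 ± 0.59 for Ccr7, with adjusted p-values of 0.438, 0.265, 0.420 and 0.733. Without libraries 2 and 4 together they were 1.37 ± 0.58, 2.34 ± 0.40, 1.57 ± 0.52 and 0.95 ± 0.65. The part of the macrophage, endothelial, NK-cell, erythroid and T-cell receptor complex sums in the values of libraries 2 and 4 was not tested.

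**Figure D2:**
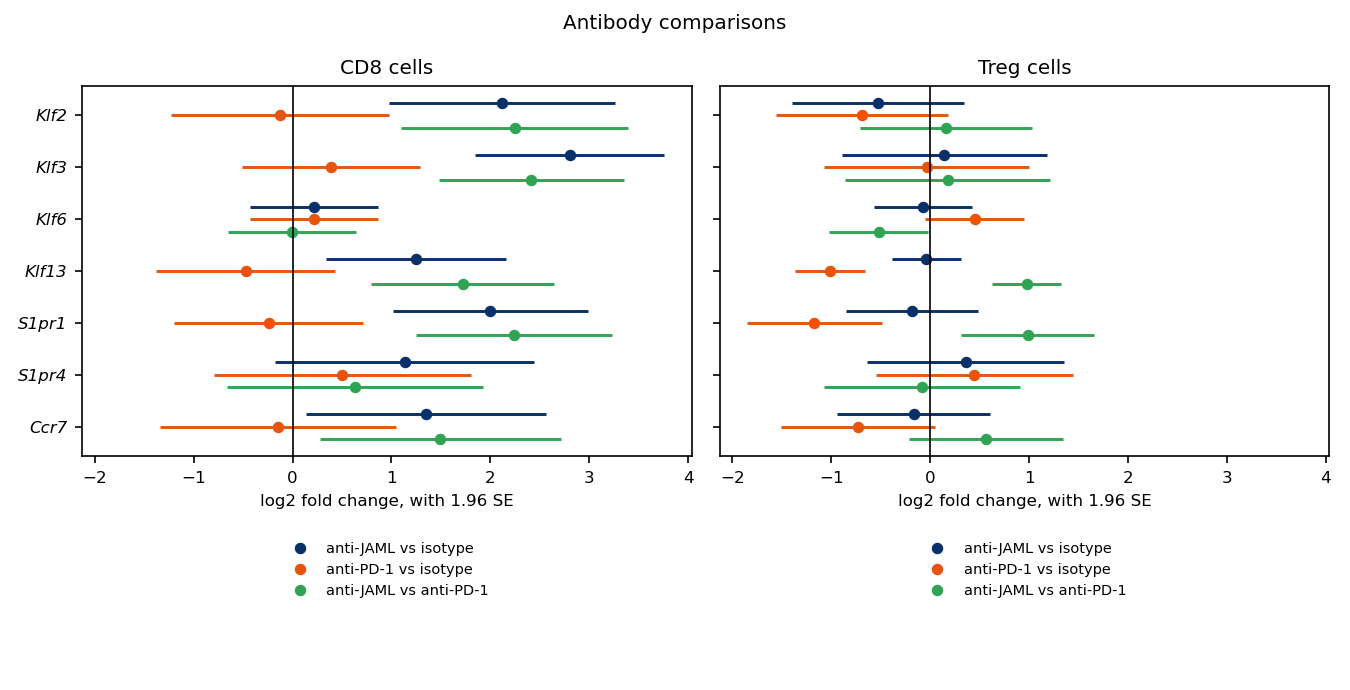
Log2 fold changes of the 7 genes (edgeR) in 3 comparisons of antibodies in CD8 cells (left) and in Treg cells (right); lines are 95% intervals from the SE. In CD8 cells both comparisons with anti-JAML lie to the right of 0 for Klf2, Klf3, Klf13, S1pr1 and Ccr7; in Treg cells Klf13 and S1pr1 lie to the left of 0 for anti-PD-1 against isotype.

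Anti-PD-1 against isotype asked the same of checkpoint blockade, and in CD8 cells the 7 genes gave small differences whose signs were mixed. Klf2 stood at 9.56, 16.3, 44.7 and 16.5 CPM after anti-PD-1, Klf3 at 9.36 to 24.05 CPM, S1pr1 at 23.6, 38.9, 90.0 and 37.4 CPM and Ccr7 at 41.2, 30.0, 168 and 56.1 CPM, all over ranges that overlapped those of isotype. The log2 fold changes ran from -0.47 ± 0.46 for Klf13 to 0.50 ± 0.66 for S1pr4, with the edgeR adjusted p at 0.9995 for all 7. The 95% interval was -1.23 to 0.98 for Klf2, -0.51 to 1.29 for Klf3 and -1.20 to 0.71 for S1pr1, so the data leave room for a difference of 1 log2 unit downward in Klf2 and S1pr1 and upward in Klf3. None of the 7 was called by edgeR, DESeq2 or limma-voom or had an unadjusted p under 0.05, against 0% and 5.61% of all genes by edgeR.

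Set directly against anti-PD-1, the anti-JAML CD8 libraries had no overlap for 4 of the 7 genes, Klf2, Klf3, Klf13 and S1pr1, against 2.76% of all genes. This comparison and the one with isotype share the 4 anti-JAML libraries. The log2 fold changes were 2.25 ± 0.59 for Klf2, 2.41 ± 0.48 for Klf3, 2.24 ± 0.51 for S1pr1 and 1.72 ± 0.47 for Klf13, with edgeR adjusted p-values of 0.184, 0.113, 0.131 and 0.207. Klf13 after anti-PD-1 stood at 88.2, 58.5, 143 and 130.1 CPM, and its log2 fold change was 0.86 ± 0.28 without anti-JAML library 4. Ccr7 had 1.49 ± 0.62 (adjusted p = 0.428), S1pr4 0.63 ± 0.66 and Klf6 -0.01 ± 0.33.

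By edgeR 0 of the 7 passed the adjusted threshold here against 0.00791% of all genes (1 gene), and 5 of the 7 had an unadjusted p under 0.05 against 9.97%. DESeq2 called 4 of the 7 and limma-voom 0. With all 24 libraries in 1 fit edgeR called 3, with adjusted p-values of 0.043 for Klf3, 0.043 for Klf13 and 0.031 for S1pr1. With genes detected as a covariate the edgeR adjusted p was 0.898 for Klf2, 0.841 for Klf3, 0.985 for Klf13 and 0.846 for S1pr1. Genes detected numbered 13257 to 14502 in the anti-JAML and 14396 to 15356 in the anti-PD-1 CD8 libraries. Without library 2 the log2 fold change of Klf2 was 1.60 ± 0.53 and that of Klf3 1.77 ± 0.39, and S1pr4 turned to -0.57 ± 0.52.

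In Treg cells the gene that stood apart was Klf13, and the antibody was anti-PD-1. Klf13 stood at 300.1, 293, 314 and 327 CPM in isotype libraries 1 to 4, at 187, 155, 118 and 134 CPM after anti-PD-1 and at 344, 263, 256 and 341 CPM after anti-JAML. All 4 anti-PD-1 values lay below the other 8 Treg values, a pattern shown by 1.07% of all genes, and the isotype values differed among themselves by little. The group means were 308 ± 15.3, 149 ± 29.9 and 301 ± 47.7 CPM. Against isotype the log2 fold change was -1.01 ± 0.18, rank 13 of 12981 genes by p, with an edgeR adjusted p of 0.0705.

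S1pr1 had a similar order in Treg cells. It stood at 167, 277, 211 and 127 CPM under isotype, at 69.1, 82.4, 90.8 and 95.9 CPM after anti-PD-1 and at 266, 229, 99.4 and 91.5 CPM after anti-JAML. The anti-PD-1 values lay below every isotype value but overlapped the 2 lower anti-JAML values. The log2 fold change against isotype was -1.17 ± 0.35 (edgeR, adjusted p = 0.169). Klf2 stood at 24.7 to 42.4 CPM under isotype and at 11.1, 13.3, 16.2 and 40.7 CPM after anti-PD-1, with library 4 inside the isotype range, a log2 fold change of -0.69 ± 0.44. Ccr7 had -0.73 ± 0.40, Klf6 0.45 ± 0.25, S1pr4 0.44 ± 0.51 and Klf3 -0.04 ± 0.53, each with overlapping groups.

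For anti-PD-1 against isotype in Treg cells, 0 of the 7 passed the adjusted threshold by edgeR against 0.0231% of all genes, 2 of the 7 (Klf13 and S1pr1) had an unadjusted p under 0.05 against 14.1%, and the same 2 lay wholly below isotype against 3.82%. DESeq2 called both, at 1.05e-05 and 0.028, and limma-voom called Klf13 at 0.0464. The edgeR adjusted p of Klf13 was 0.0327 without anti-PD-1 library 1 and 0.0404 without isotype library 4, but 0.223 and 0.226 without anti-PD-1 libraries 2 and 3, 0.172 with all 24 libraries in 1 fit, 0.281 with the replicate block and 0.9998 with genes detected as a covariate. Genes detected numbered 14031 to 15162 in the anti-PD-1 and 12643 to 14378 in the isotype Treg libraries. The log2 fold change of Klf13 stayed between -1.15 and -0.92 over all alternatives tried. The anti-PD-1 and isotype groups also differed in T-cell receptor complex genes, which summed to 3120 to 4637 CPM after anti-PD-1 and 4879 to 6983 CPM under isotype, and in macrophage and monocyte genes, with 10 of 10 read after anti-PD-1 at 14.2 to 1167 CPM and 9 of 10 under isotype (Csf1r at 0) at 20.4 to 109 CPM. Without libraries 1 and 4 together the log2 fold change of Klf13 was -1.14 with an adjusted p of 0.0647. The part of the macrophage and T-cell receptor complex sums in these values was not tested.

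Anti-JAML against isotype in Treg cells gave no fitted difference of that size. Klf2 stood at 30.0, 30.2, 18.5 and 14.1 CPM and Klf3 at 30.7, 28.7, 17.4 and 38.7 CPM after anti-JAML, and isotype Klf3 ranged from 4.48 to 45.5 CPM. The log2 fold changes ran from -0.53 ± 0.44 for Klf2 to 0.36 ± 0.51 for S1pr4, and the interval for Klf13 was the narrowest, -0.39 to 0.31. The 95% interval was -1.40 to 0.34 for Klf2, -0.90 to 1.18 for Klf3 and -0.64 to 1.36 for S1pr4. The data thus leave room for differences as large as that of Klf13 after anti-PD-1, downward in Klf2 and upward in Klf3 and S1pr4. None of the 7 was called by edgeR, DESeq2 or limma-voom or had an unadjusted p under 0.05, against 0% and 5.38% of all genes by edgeR. Against anti-PD-1, anti-JAML Treg cells had a Klf13 log2 fold change of 0.97 ± 0.18 (rank 6 of 12981, edgeR adjusted p = 0.255) with no overlap, against 2.78% of all genes, and an S1pr1 log2 fold change of 0.98 ± 0.34 (adjusted p = 0.765). These 2 genes were the members with an unadjusted p under 0.05, against 5.72% of all genes, and 0 passed the adjusted threshold by edgeR against 0%; DESeq2 called Klf13 and limma-voom called none.

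CD8 and Treg cells of the same antibody group were compared next. Under isotype 4 of the 7 genes were lower in CD8 cells, against 15.3% of all genes called in either direction (959 higher and 832 lower), and none was higher. Klf13 fell furthest beyond its error: 146 ± 19.1 CPM in CD8 and 308 ± 15.3 CPM in Treg cells, a log2 fold change of -1.01 ± 0.13 (edgeR, adjusted p = 0.00131). S1pr1 was at 56.3 ± 36.1 against 195 ± 64.2 CPM, -1.72 ± 0.42 (adjusted p = 0.0233), and its highest CD8 value of 108 CPM was below the lowest Treg value of 127 CPM. S1pr4 was at 26.9 ± 8.91 against 80.9 ± 32.3 CPM, -1.50 ± 0.38 (adjusted p = 0.027), with Treg library 1 at 34.7 CPM inside the CD8 range. Klf6 was at 124 ± 5.56 against 212 ± 60.2 CPM, -0.70 ± 0.20 (adjusted p = 0.0433). Klf2 had -0.43 ± 0.44, Klf3 -0.95 ± 0.62 and Ccr7 0.19 ± 0.40, and these did not pass.

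The same 4 genes had an unadjusted p under 0.05, against 27.7% of all genes, and 3 of the 7 (Klf6, Klf13 and S1pr1) had no overlap with CD8 below Treg, against 12.4%. Klf13 kept its call in 14 of 15 alternatives and lost it with all 24 libraries in 1 fit (adjusted p = 0.101). The other 3 calls were less firm. The number of the 7 called was 1 without CD8 isotype library 1, 2 or 3 or Treg isotype library 2, 2 without Treg isotype library 3 or 4, 3 without CD8 isotype library 4 and 4 without Treg isotype library 1; limma-voom called 2 and DESeq2 4.

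**Figure D3:**
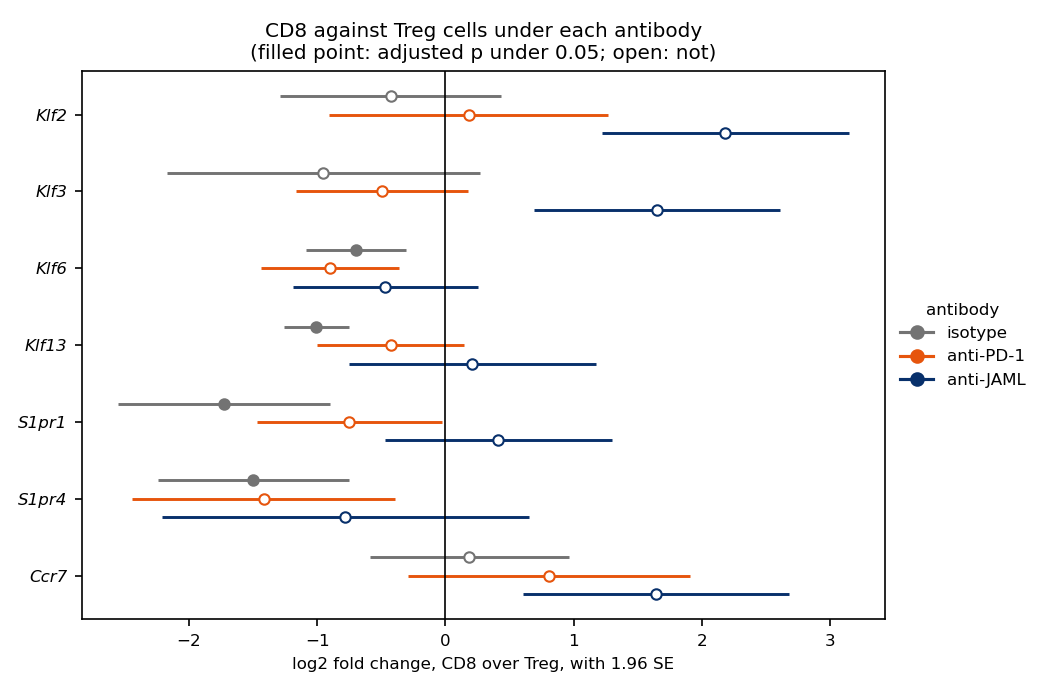
Log2 fold change of CD8 over Treg cells (edgeR; lines are 95% intervals from the SE) for the 7 genes under each antibody; filled points passed the adjusted threshold and open points did not. Under isotype Klf6, Klf13, S1pr1 and S1pr4 lie to the left of 0 with filled points, and after anti-JAML Klf2, Klf3 and Ccr7 lie to the right with open points.

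After anti-PD-1, 0 of the 7 were called by edgeR, against 7.83% of all genes, and 2 (Klf6 and S1pr4) had an unadjusted p under 0.05 against 24.1%. Klf6 stood at 144 ± 48.7 CPM in CD8 and 283 ± 70.7 CPM in Treg cells, -0.90 ± 0.27 (adjusted p = 0.0755), and S1pr4 at 38.0 ± 26.7 against 108 ± 57.5 CPM, -1.42 ± 0.52 (adjusted p = 0.128). DESeq2 called these 2 and limma-voom 0. Klf6 passed with edgeR without Treg library 1 (adjusted p = 0.0303), S1pr4 passed without Treg library 1 (0.0315) or CD8 library 2 (0.0400), and S1pr1 passed without CD8 library 3 (0.0263), where it had -1.26 in place of -0.75 ± 0.37. S1pr4 in that CD8 group stood at 26.2, 78.0, 25.2 and 22.6 CPM, with library 2 apart from the rest.

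After anti-JAML the fitted difference was positive for 5 of the 7 genes, among them S1pr1 and Klf13, which were lower in CD8 cells under isotype. For these 2 genes it was within its SE. Klf13 had 0.21 ± 0.49 (edgeR, adjusted p = 0.938), with CD8 library 4 at 812 CPM. The sign stayed positive in 11 of 16 alternatives for Klf13 and in 14 of 16 for S1pr1. Klf2 was at 105 ± 78.7 CPM in CD8 and 23.2 ± 8.17 CPM in Treg cells, 2.18 ± 0.49 (edgeR, adjusted p = 0.0552), and Klf3 at 90.8 ± 68.8 against 28.9 ± 8.79 CPM, 1.65 ± 0.49 (adjusted p = 0.148). Neither gene overlapped between the populations, against 4.18% of all genes with CD8 wholly above Treg. Ccr7 had 1.64 ± 0.53 (adjusted p = 0.187), and S1pr1, at 228 ± 132 against 171 ± 89.1 CPM, had 0.41 ± 0.45. Klf2, Klf3 and Ccr7 were the 3 members with an unadjusted p under 0.05, against 12.8% of all genes, and 0 of the 7 were called by edgeR against 2.08%. DESeq2 called these 3 and limma-voom 0, and edgeR called Klf2 with no filter on low counts (0.0204) and with all 24 libraries in 1 fit (0.0143).

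Whether the effect of anti-JAML differed between the populations was tested with an interaction term over all 24 libraries. The effect in CD8 minus that in Treg cells was 2.62 ± 0.74 for Klf2, 2.62 ± 0.72 for Klf3 and 2.16 ± 0.62 for S1pr1 on the log2 scale, each with an edgeR adjusted p of 0.368. It was 1.24 ± 0.52 for Klf13, 1.47 ± 0.77 for Ccr7, 0.74 ± 0.86 for S1pr4 and 0.25 ± 0.42 for Klf6. By edgeR 0 of the 7 passed, against 0% of all genes, and 4 (Klf2, Klf3, Klf13 and S1pr1) had an unadjusted p under 0.05, against 8.39%; DESeq2 called Klf2, Klf3 and S1pr1 and limma-voom none. For anti-PD-1 the term ran from -0.26 ± 0.42 for Klf6 to 0.91 ± 0.62 for S1pr1, with 0 called by any of the 3 tools and none at an unadjusted p under 0.05, against 0% and 6.25% of all genes by edgeR.

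Ordered by group mean CPM, the CD8 anti-JAML group was highest for Klf2, Klf3, Klf13, S1pr1 and Ccr7 and the Treg anti-PD-1 group for Klf6 and S1pr4. Between neighbours in that order, the difference stayed within the larger of the 2 SDs for every step of Klf2, S1pr1, S1pr4 and Ccr7. The steps that exceeded it were Treg anti-JAML over Treg anti-PD-1 for Klf13 (152 CPM against an SD of 47.7), CD8 isotype over CD8 anti-PD-1 for Klf13 (40.7 against 38.7), Treg anti-PD-1 over CD8 anti-PD-1 for Klf3 (8.18 against 6.37) and, barely, Treg anti-PD-1 over Treg isotype for Klf6 (70.8 against 70.7). Of these, only Treg anti-JAML over Treg anti-PD-1 for Klf13 had ranges without overlap. Ranges were also apart at the top step of Klf2, CD8 anti-JAML over Treg isotype (71.9 against 78.7). The same held for the top step of Klf3, CD8 anti-JAML over Treg anti-JAML (61.9 against 68.8).

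How the 7 genes varied together was described by Pearson correlations of log2 CPM, with no test, since the libraries share groups, scaling and depth. In CD8 cells Klf2, Klf3, S1pr1 and Ccr7 moved together from library to library. With each group mean taken off, so that the difference between antibodies no longer enters, r over the 12 libraries was 0.82 for Klf2 with S1pr1, 0.89 for Klf3 with S1pr1, 0.79 for Klf2 with Klf3, 0.81 for Klf2 with Ccr7 and 0.85 for S1pr1 with Ccr7. The 8 CD8 libraries of isotype and anti-PD-1 alone were also taken, with group means left in. There r was 0.77 (Spearman 0.81) for Klf2 with S1pr1 and 0.79 (0.74) for Klf3 with S1pr1. For Ccr7 it was 0.85 (0.79) with Klf2, 0.82 (0.67) with S1pr1 and 0.68 (0.74) with Klf3. Klf2 with Klf3 had 0.68 (0.60). Library 3 of each of these groups was the highest or second highest for Klf2, S1pr1 and Ccr7.

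**Figure D4:**
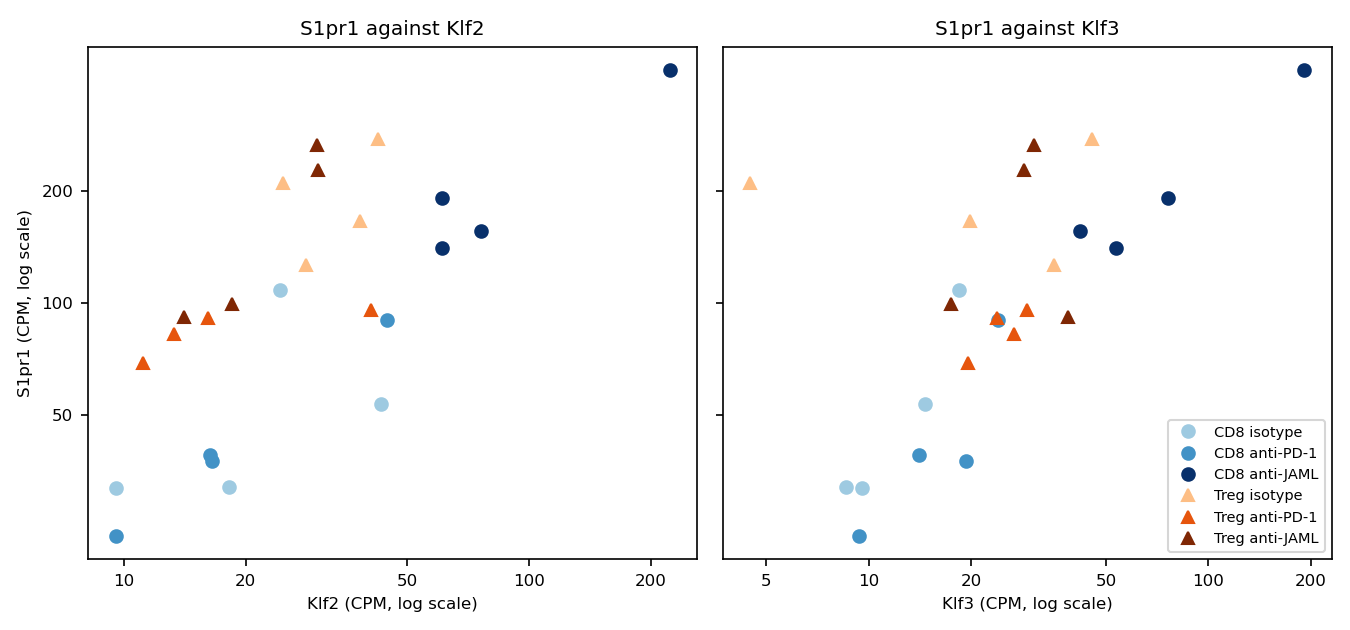
S1pr1 against Klf2 (left) and against Klf3 (right), CPM on log axes, in 24 libraries; circles are CD8 and triangles Treg libraries. CD8 points run from low left to high right, with the 4 anti-JAML points at the upper right, and the Treg points follow no such line for Klf3.

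Treg cells gave a different picture for Klf3. With group means taken off, r over the 12 Treg libraries was 0.63 for Klf2 with S1pr1 but 0.04 for Klf3 with S1pr1 and 0.31 for Klf2 with Klf3, and Treg isotype library 3 combined the lowest Klf3 of all 24 libraries, 4.48 CPM, with 211 CPM of S1pr1. Whether r differed between the populations was not tested. Klf6 and S1pr4 went together in both, with r of 0.77 in CD8 and 0.82 in Treg cells. With group means left in, r of that pair in CD8 cells was 0.76, and 0.59 without anti-JAML library 2. Over the 8 isotype and anti-PD-1 libraries it was 0.36 (Spearman 0). Klf13 went against S1pr4 within CD8 groups, with r of -0.80, and within the anti-JAML group libraries 2 and 4 held the extremes of both genes. With group means left in, r was -0.48 over the 12 libraries. It was 0.16 once the 2 libraries farthest from the median of Klf13 were left out, so its sign turned without that pair. The pair included anti-JAML library 4 (812 CPM of Klf13) but not anti-JAML library 2 (148 CPM). Without anti-JAML library 2 alone r was -0.69, and over the 8 isotype and anti-PD-1 libraries it was -0.69 (Spearman -0.38).

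**Figure D5:**
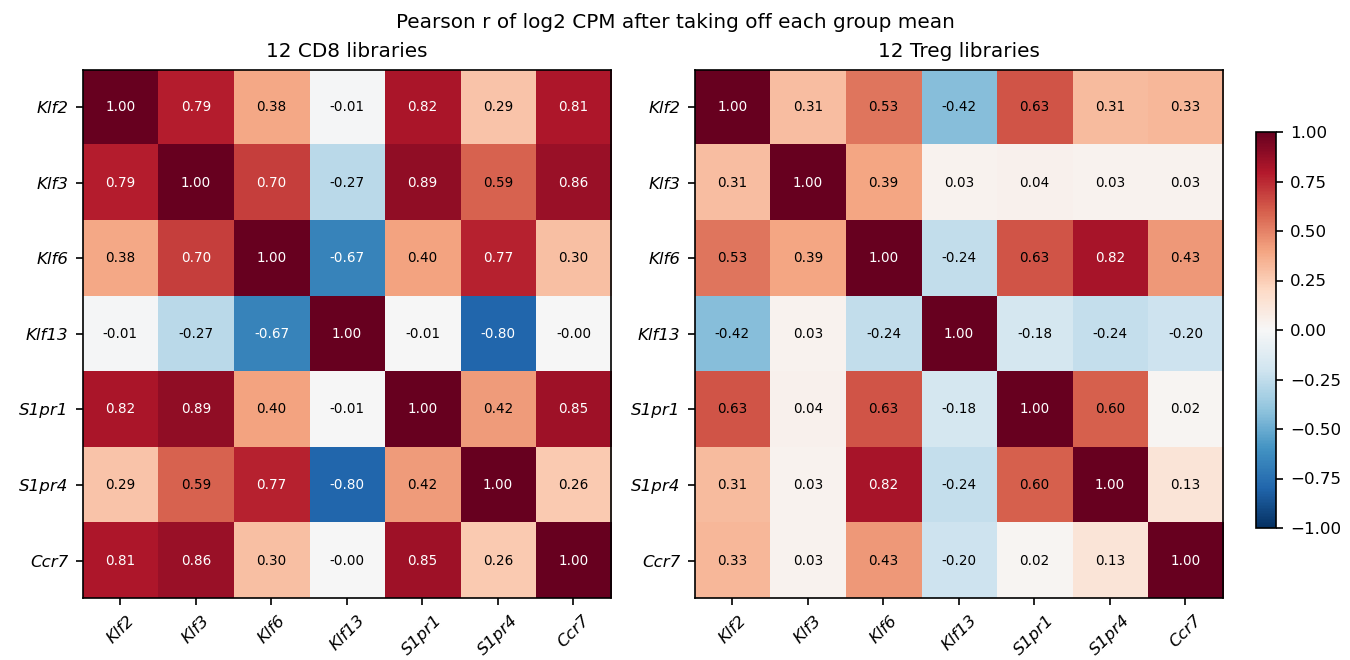
Pearson r between the 7 genes over 12 CD8 (left) and 12 Treg libraries (right), from log2 CPM with each group mean taken off; red is positive and blue negative. In CD8 cells Klf2, Klf3, S1pr1 and Ccr7 have r of 0.79 to 0.89 with each other; in Treg cells the pairs among them that include Klf3 or Ccr7 have r of 0.02 to 0.33.

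The genes most like each member were ranked by Pearson r over the 12 libraries of a population, group differences included. In CD8 cells the nearest to Klf2 among 12648 genes were Tcf7, a factor of naive and memory T cells (r = 0.94), and S1pr1 (0.94). Tcf7 was also the nearest to S1pr1 (0.95), followed by Klf3 (0.95) and Klf2 (0.94), and the nearest to Klf3 were S1pr1 (0.95), Slfn2 (0.94) and Itgb1 (0.94). Tcf7 stood at 16.5, 19.2, 48.8 and 56.6 CPM under isotype and at 92.4, 376, 97.6 and 231 CPM after anti-JAML. For Ccr7 they were Cdkn2d (0.91), Il7r, the interleukin-7 receptor (0.89), and Bcl6 (0.89).

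In CD8 cells the nearest to Klf6 were Hnrnpll (0.96), Ubr2 (0.95) and Wdr48 (0.94), to S1pr4 Ss18 (0.95), Galnt6 (0.94) and Trpc4ap (0.93), and to Klf13 Ptp4a2 (0.93), N4bp2l1 (0.92) and Gsk3b (0.92). In Treg cells, among 12981 genes, none of the 7 was among the 3 nearest of another. The nearest to Klf13 were Tnfaip8l2 (0.93), Inpp4a (0.91) and Cd37 (0.91), to S1pr1 Tmem218 (0.89), Ssbp2 (0.88) and Cytip (0.87), to Klf2 Rsrc2 (0.91), Dnttip1 (0.88) and Abhd6 (0.83), and to Klf3 Eya3 (0.96), Errfi1 (0.96) and Zfp3 (0.93). For Klf6 they were E2f7 (0.92), Atxn7l2 (0.90) and Exosc10 (0.89), for S1pr4 Ablim1 (0.96), Gimap3 (0.95) and Sash3 (0.94), and for Ccr7 Snap23 (0.88), Rasa1 (0.87) and Dand5 (0.87).

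The wider pathway was read from 4 lists: 17 KLF genes, 23 genes of the S1P pathway, 22 of lymph node homing and 24 regulators of egress. In the 6 comparisons of antibodies 0 genes of any list passed the adjusted threshold with edgeR. For anti-JAML against isotype in CD8 cells the members other than the 7 had a median log2 fold change of 0.25 over 6 tested KLF genes, 0.33 over 15 S1P genes, 0.46 over 17 homing genes and 0.67 over 23 regulators, against 0.09 over all genes. At an unadjusted p under 0.05 these others had 1 higher and 0 lower among the KLF genes, 0 higher and 1 lower in the S1P list, 6 higher and 0 lower in the homing list and 4 higher and 1 lower among the regulators, against 11.7% of all genes in either direction. Cd69, whose product binds S1PR1 and takes it off the surface, was at 353 ± 45.7 CPM after anti-JAML against 219 ± 50.8 CPM under isotype, and Prdm1, the gene of the repressor BLIMP-1, at 27.4 ± 14.1 against 59.7 ± 10.02 CPM, with adjusted p-values of 0.403 and 0.330; these 2 were chosen after their values were seen.

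Between the populations under isotype, where 15.3% of all genes were called, some further genes of the lists were lower in CD8 cells. In the S1P list 6 of 16 tested genes were lower and 0 higher: beside S1pr1 and S1pr4 these were S1pr2, a receptor that restrains migration (-1.92 ± 0.55), Sgpl1, the lyase that degrades S1P (-1.05 ± 0.22), and the G protein subunits Gna13 (-1.80 ± 0.27) and Gnai2 (-0.63 ± 0.18), with edgeR adjusted p-values of 0.0453, 0.0121, 0.00302 and 0.0490. In the homing list 3 of 17 were lower: the integrin subunit Itgb7, at 23.6 ± 3.92 against 419 ± 141 CPM, Rap1b and Dock2. In the KLF list the 2 genes lower of 11 tested were Klf6 and Klf13. Among 22 regulators Foxo3 and Prdm1 were lower and Hdac1 and Mef2c higher; Mef2c, a MEF2 factor, had 29.8 ± 6.001 CPM in CD8 cells and 0 reads in all 4 Treg isotype libraries. After anti-PD-1 the genes called in the lists were Gna13, Itgb7, Dock2 and Foxo1, all lower in CD8 cells, and after anti-JAML Prdm1, also lower.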

How the data were processed

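Raw read counts per gene and TPM values for 24 libraries were deposited by the authors as whole tables. The submitters' processing notes name fastp 0.20.1, STAR 2.7.3a, SAMtools, deepTools 3.3.1 and the build mm10; how reads were counted, with or without strand, and on which annotation is not stated there. From the counts, genes were filtered with filterByExpr (minimum count 10, minimum total 15), scaled by TMM and tested with edgeR 4.0.16 (quasi-likelihood F test, two-sided, R 4.3.3), with p-values adjusted by Benjamini-Hochberg over all genes tested and a threshold of 0.05. The 3 antibody comparisons of a population came from 1 fit of its 12 libraries, each population comparison from 8 libraries and the interactions from all 24. The code was tested on simulated counts. DESeq2 1.42.0, limma-voom (limma 3.58.1), RLE scaling, no filter, the replicate number as a block, genes detected as a covariate, all 24 libraries in 1 fit and leaving out libraries were alternatives. The 95% intervals are normal intervals of 1.96 SE to either side. They are narrower than the F test implies, so an interval can leave out 0 at an unadjusted p above 0.05. Klf6 in Treg cells, anti-JAML against anti-PD-1, was such a case (-1.02 to -0.02, edgeR unadjusted p = 0.061). Correlations used log2 CPM with a prior count of 2. Gene coordinates came from GENCODE (98.6% of rows matched). Named genes were the 7 members, list genes past the threshold (between populations, the 6 with the smallest p of each list) and the 3 genes most like each member, predicted genes left out; exceptions are marked. Results of some genes are not reported here. The members and lists were chosen with earlier results of these data known. Counting error was not computed apart from the spread between libraries.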

Additional observations from a re-analysis of the deposited data

Results flagged for a closer look

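In 5 of the 42 sets of 4 libraries (7 genes in 6 groups), 1 library lay far from the other 3, judged by its gap to the nearest of the others divided by the whole range of the group and set against Dixon's 95% critical value for 4 samples. Chance flags about 1 in 20 groups if values are normal and sets are independent. The ratio was taken on CPM without a log, and each flagged library was the highest of its set. The sets also share libraries, so that rate is only a rough guide. In CD8 cells after anti-JAML this ratio was 0.906 for Klf2 in library 2, at 223 CPM, 0.853 for S1pr4 in library 2, at 164 CPM, and 0.843 for Klf13 in library 4, at 812 CPM. In CD8 cells after anti-PD-1 it was 0.934 for S1pr4 in library 2, at 78.0 CPM. In Treg cells after anti-PD-1 it was 0.831 for Klf2 in library 4, at 40.7 CPM. The first 3 sets belong to CD8 anti-JAML libraries 2 and 4, and the last to a library of the Treg anti-PD-1 group with Lyz2 at 889 CPM.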

How the results depend on the processing

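No direction of a called value reversed. Of 1617 values of single members under an alternative, 1556 kept their direction and side of the threshold, 33 gained a call and 28 lost one; the cause was not tested. Counts of genes called depended most on the tool. In CD8 cells, anti-JAML against anti-PD-1, edgeR called 1 gene, DESeq2 262, limma-voom 8, RLE scaling 4, no filter 9, all 24 libraries in 1 fit 58, the replicate block 0, the covariate 0, the fit without CD8 anti-JAML libraries 2 and 4 together 0, and leaving out 1 library 0 to 11. For anti-PD-1 against isotype in Treg cells edgeR called 3, DESeq2 623, limma-voom 40, all 24 libraries 176, the replicate block 0, the covariate 0, the fit without Treg anti-PD-1 libraries 1 and 4 together 12, and leaving out 1 library 0 to 122. Where edgeR called 0, DESeq2 called 210 for anti-JAML and 22 for anti-PD-1 against isotype in CD8 cells, 87 for anti-JAML against isotype and 70 against anti-PD-1 in Treg cells (all 24 libraries 6 and 3, leaving out 1 library 0 to 5 and 0 to 1), and 283 and 201 for the anti-JAML and anti-PD-1 interactions (leaving out 1 library 0 to 19 and 0 to 12; for anti-PD-1 limma-voom 5 and without Treg anti-PD-1 libraries 1 and 4 together 2). Between populations the counts were 1791 under isotype (replicate block 1075, covariate 1115, leaving out 1 library 1117 to 2125), 955 after anti-PD-1 (DESeq2 1935, leaving out 1 library 396 to 1900) and 248 after anti-JAML (DESeq2 747, replicate block 95, all 24 libraries 666, leaving out 1 library 82 to 328).

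Of the 7 members, DESeq2 called 3 for anti-JAML against isotype and 4 against anti-PD-1 in CD8 cells (all 24 libraries 3), 2 for anti-PD-1 against isotype in Treg cells (limma-voom 1, leaving out 1 library 0 to 1), 1 for anti-JAML against anti-PD-1 in Treg cells and 3 for the anti-JAML interaction, each 0 with edgeR. Between populations the members called were 4 under isotype (limma-voom 2, replicate block 1, covariate 1, all 24 libraries 1, leaving out 1 library 1 to 4), 0 after anti-PD-1 (DESeq2 2, replicate block 1, covariate 1, without Treg anti-PD-1 libraries 1 and 4 together 1, leaving out 1 library 0 to 2) and 0 after anti-JAML (DESeq2 3, no filter 1, all 24 libraries 1). Between libraries with the same replicate number the highest correlation of deviations was 0.148. The labels do not say whether equal numbers mark a shared mouse or day. Deviations among 4 libraries a group, each of under 400 cells, cannot settle it, so the replicate block is given as an alternative. Each of the 7 genes had at least 72 reads in every library. The precision given is that of the spread between 4 libraries of under 400 cells.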
